A study of Mus musculus with 9 samples.

Results

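Splicing factor and hnRNP genes were taken as the protein-coding genes whose symbols begin with Srsf, Hnrnp, Sf3a, Sf3b, Snrp, Snrnp, Luc7l, Prpf, U2af or Rbm, with Pnn, Pnisr, Safb, Safb2 and Pabpn1 added. The rule used names only and found 130 of the 21965 counted genes. It was set with earlier results of these data known. Pre-mRNA splicing is carried out by the spliceosome, which is built on each intron from small nuclear ribonucleoproteins (snRNPs). The U1 snRNP reads the 5′ splice site, U2AF and the U2 snRNP read the 3′ end of the intron and the branch site, and the U5 and U4/U6 snRNPs join before catalysis. SR proteins (Srsf genes) mostly promote the use of nearby exons, whereas hnRNP proteins coat nascent RNA and often oppose them. In lymphoid tissue these factors are known for setting the isoforms of surface receptors and of signalling proteins during activation.

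RNA was sequenced from spleens of 16-week-old mice, 3 each of BWF1 females, males of the same cross and BALB/c females. BWF1 is the F1 cross of the NZB and NZW strains, whose females are named in the series title as prone to lupus, while BWF1 males and BALB/c females are named as not prone. BWF1 females and males differ in sex, BWF1 and BALB/c females in strain, and BWF1 males and BALB/c females in both, which cannot be told apart in that comparison. The title and design speak of whole splenocytes, but the sample labels name macrophages sorted on CD11b and F4/80. No transgene, deletion or treatment is named for any group.

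The 9 libraries held 458608 to 4305003 counts over genes, and the BWF1 female libraries were the smallest at 458608 to 673160. Lars2 took 42.3% to 76.6% of the counts of a library. Without Lars2, 188382 to 254261 counts remained in BWF1 females, 227184 to 2050636 in BWF1 males and 431664 to 641768 in BALB/c females. Counts over genes made up 1.29% to 2.05% of the tallied alignments in the BWF1 libraries and 2.14% to 2.82% in BALB/c females. The part of this difference in the results was not tested. Levels are given as CPM (counts scaled to a common library total) after TMM scaling, which sets the library totals so that most genes are level between libraries, with factors from 0.530 to 1.40. A gene with 3 counts stood at 0.625 to 6.62 CPM on this scale. The labels were checked on 4 Y-linked genes, which had 0 counts in each of the 6 libraries from females and 45, 102 and 373 in BWF1 males 1 to 3. Macrophage and B cell markers were both present. Of the genes named by the labelled sort, Itgam, which encodes CD11b, had 0 counts in BWF1 females 1 and 3 and at most 6.66 CPM elsewhere, and Adgre1, which encodes F4/80, ranged from 5.26 to 20.8 CPM in the 9 libraries. The macrophage genes Csf1r and Lyz2 ranged from 30.9 to 149 CPM and from 67.8 to 294 CPM, and the B cell marker Cd79a from 250.5 to 485 CPM. The counts are per gene, so they show the level of splicing factors and not splicing itself.

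The promoters of 5 members are shown because these genes were among those with the lowest p for higher levels in BWF1 females, and because Safb and Safb2 lie head to head. Each is the RefSeq window of 300 bases on GRCm38.p6, with 250 bases before and 50 after the RefSeq start, on the gene's own strand. Capitals mark matches to searched motifs. The windows lie at chr17:56584732-56585031 on the plus strand for Safb, chr17:56584536-56584835 on the minus strand for Safb2, chr11:94321914-94322213 on the minus strand for Luc7l3, chr12:59066669-59066968 on the plus strand for Pnn and chr12:80945249-80945548 on the plus strand for Srsf5.
Safb: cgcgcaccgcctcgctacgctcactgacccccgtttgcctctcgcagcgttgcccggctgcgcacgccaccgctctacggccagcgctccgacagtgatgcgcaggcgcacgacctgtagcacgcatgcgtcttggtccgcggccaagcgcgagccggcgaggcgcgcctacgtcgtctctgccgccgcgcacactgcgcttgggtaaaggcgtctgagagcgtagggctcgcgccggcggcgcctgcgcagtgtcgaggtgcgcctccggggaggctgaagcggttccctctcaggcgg
Safb2: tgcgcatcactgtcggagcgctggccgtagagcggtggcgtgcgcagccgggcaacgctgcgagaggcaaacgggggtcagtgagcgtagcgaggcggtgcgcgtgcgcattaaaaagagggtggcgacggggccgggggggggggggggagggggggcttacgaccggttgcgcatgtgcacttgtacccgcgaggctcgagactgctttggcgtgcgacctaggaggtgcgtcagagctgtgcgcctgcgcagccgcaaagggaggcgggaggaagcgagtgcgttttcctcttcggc
Luc7l3: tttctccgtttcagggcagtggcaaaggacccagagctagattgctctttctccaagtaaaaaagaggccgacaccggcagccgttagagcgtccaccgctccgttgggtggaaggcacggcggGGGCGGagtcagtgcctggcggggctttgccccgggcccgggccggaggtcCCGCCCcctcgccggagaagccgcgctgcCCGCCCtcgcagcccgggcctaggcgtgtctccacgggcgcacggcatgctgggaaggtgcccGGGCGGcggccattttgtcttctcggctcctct
Pnn: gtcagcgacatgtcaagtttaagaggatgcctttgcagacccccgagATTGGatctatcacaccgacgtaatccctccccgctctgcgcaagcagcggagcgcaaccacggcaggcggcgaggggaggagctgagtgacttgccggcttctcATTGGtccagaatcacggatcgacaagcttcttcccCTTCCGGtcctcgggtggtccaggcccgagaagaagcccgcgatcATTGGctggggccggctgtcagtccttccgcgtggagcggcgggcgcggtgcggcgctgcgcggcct
Srsf5: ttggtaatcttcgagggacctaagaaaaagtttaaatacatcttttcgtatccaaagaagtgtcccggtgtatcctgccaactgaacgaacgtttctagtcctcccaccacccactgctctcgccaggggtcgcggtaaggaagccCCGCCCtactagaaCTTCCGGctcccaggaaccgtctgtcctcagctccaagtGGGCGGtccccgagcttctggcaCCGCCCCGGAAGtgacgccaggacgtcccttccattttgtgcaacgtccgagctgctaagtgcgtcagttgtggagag

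The Safb and Safb2 windows share 104 bases on opposite strands, and the GENCODE starts of both genes are 239 bases apart. RefSeq and GENCODE starts can differ, and the GENCODE start of Safb (56584825) is not the start its window was set on. The motifs searched on both strands were the TATA box (TATAAA), the CCAAT box (CCAAT), the GC box (GGGCGG), the ETS site (CCGGAAG), the CRE (TGACGTCA) and the YY1 site (AAGATGGC). The Safb and Safb2 windows held 0 matches to these letters. The Luc7l3 window held 4 GC boxes, the Pnn window 3 CCAAT boxes and 1 ETS site, and the Srsf5 window 3 GC boxes and 2 ETS sites, of which a GC box and an ETS site overlap. Of the 130 members, 109 had a window in the table. The GC box was in 57.8% of these and in 35.9% of all 27025 promoters, and the ETS site in 24.8% of these and in 9.12% of all promoters. The CCAAT box was in 47.7% of member windows and 37.9% of all promoters, and the TATA box in 13.8% and 14.2%. Among the 16 windows of the 19 members called higher in BWF1 females in either comparison, 68.8% held a GC box and 18.8% an ETS site. These shares describe letters in the windows and were not tested.

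Of the 130 members, 109 passed the filter on low counts and 21 did not. Among the 21, 5 (Rbm31y, Rbm44, Rbm46, Rbmxl2 and Rbmy) had 0 counts in every library, and the other 16 averaged 0.0730 CPM (Rbm24) to 8.02 CPM (Rbm41). Per kilobase of exon, the highest members over all libraries were Hnrnpa0 at 55.5, Hnrnpa2b1 at 50.2, Hnrnpab at 48.7, Hnrnpa1 at 43.1 and Prpf8 at 42.6 CPM per kb. Of the 50-base windows of Hnrnpa1, 28.2% occur in another gene, so its counts are uncertain. The same limit holds for the 38 members with over 10% of such windows shared. Among those named below are Rbm10 (42.8%), Hnrnpab (23.85%), U2af1 (21.65%), Srsf2 (20.7%), Hnrnph2 (15.9%), Rbm48 (15.4%), Hnrnpm (13.5%) and Srsf5 (10.1%). By role, the median level of tested members was 21.9 CPM per kb among the hnRNP genes, 15.8 among the SR genes, 9.61 among the U2 snRNP genes, 6.77 among the Rbm genes and 6.50 among the genes of the U5 and U4/U6 snRNPs and Prp proteins.

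Together the members stood higher in BWF1 females than in either other group on the TMM scale. Their summed level was 8359, 9297 and 8576 CPM in BWF1 females, against 7530, 7042 and 7040 CPM in BWF1 males and 7637, 7394 and 7279 CPM in BALB/c females. Every BWF1 female lay above the 6 other libraries. As a share of counts without Lars2, the sums were 2.01%, 2.27% and 2.06% in BWF1 females, 1.69%, 1.66% and 1.65% in BWF1 males and 1.85%, 1.75% and 1.70% in BALB/c females, in the same order of groups. On the raw library total, which Lars2 dominates, the sums were 8264 to 8900 CPM in BWF1 females and 8107 to 10111 CPM in BALB/c females, so these ranges overlap and the order of the 2 means flips (ratio of BWF1 to BALB/c females 0.968, against 1.18 on the TMM scale).

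**Figure D1:**
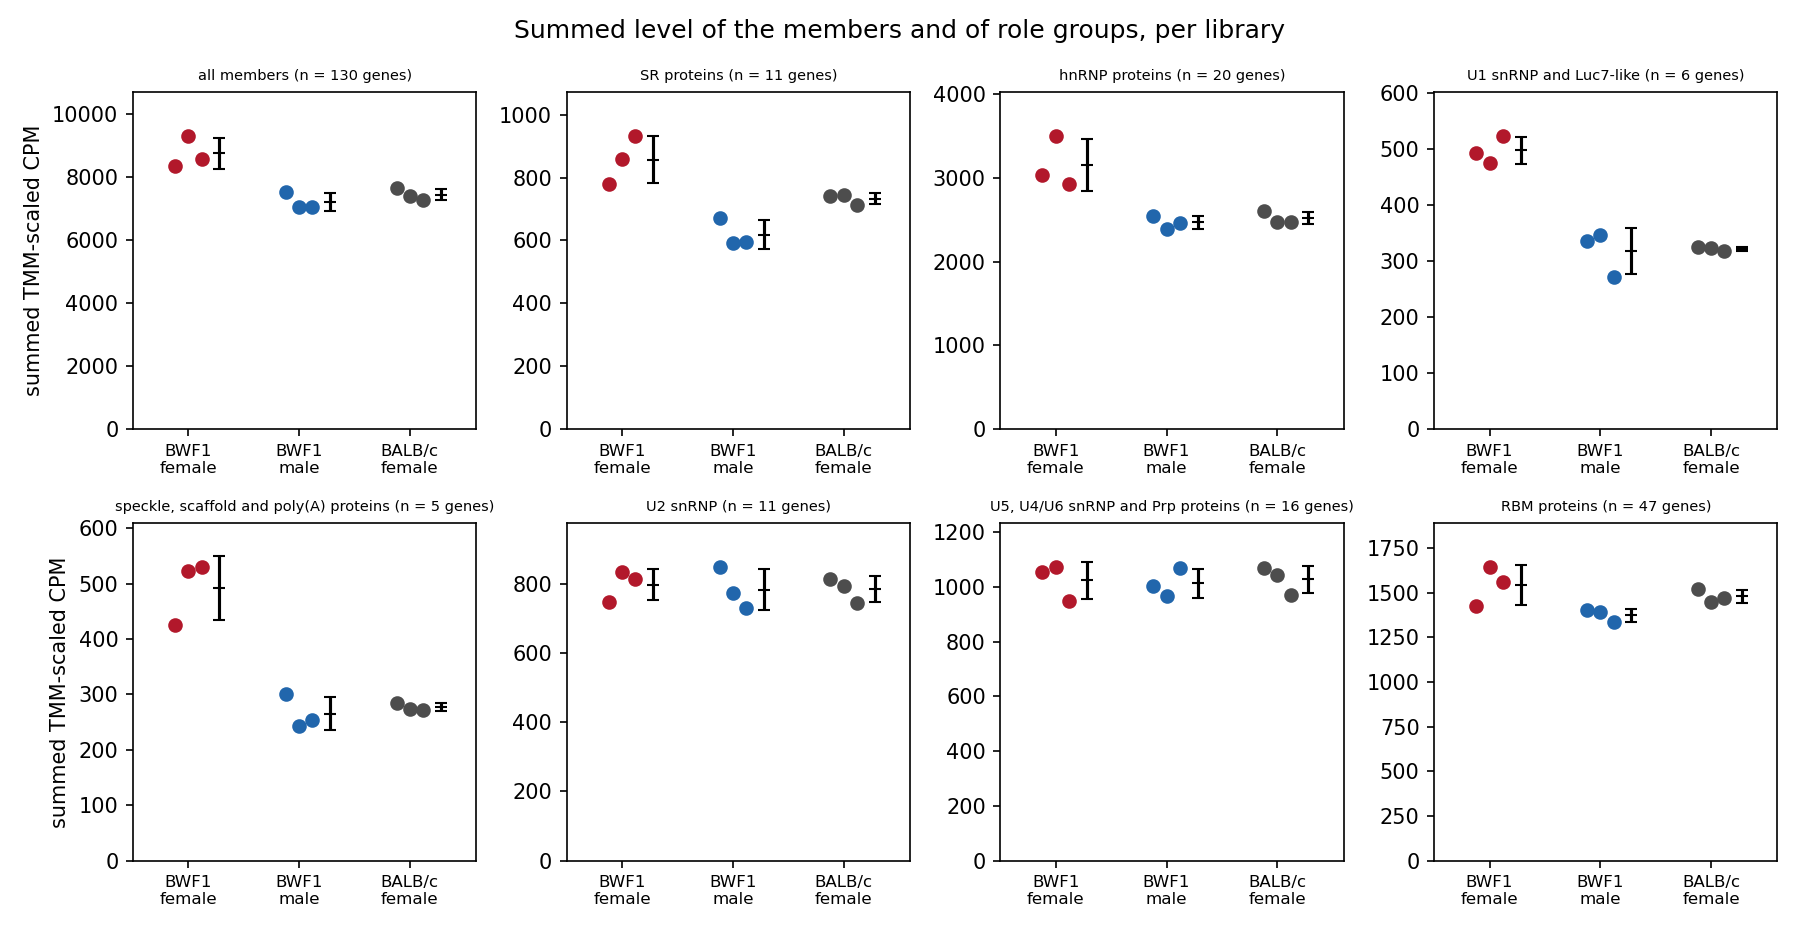
Summed TMM-scaled CPM of all 130 members and of 7 role groups in each library (points), with the mean and SD of 3 libraries (bars), for BWF1 females, males of the same cross and BALB/c females. The 5 speckle, scaffold and poly(A) genes ranged from 426 to 530 CPM in BWF1 females, above the 243 to 300.1 CPM of BWF1 males and the 272 to 285 CPM of BALB/c females, while the U2 snRNP sums overlap.

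By role, the 5 speckle, scaffold and poly(A) genes summed to 426, 523 and 530 CPM in BWF1 females, against 300.1, 243 and 253 CPM in BWF1 males and 285, 274 and 272 CPM in BALB/c females. The 6 genes of the U1 snRNP and Luc7-like proteins summed to 494, 476 and 524 CPM in BWF1 females, against 335, 348 and 271 CPM in BWF1 males and 325, 324 and 318 CPM in BALB/c females. The 20 hnRNP genes summed to 3035, 3498 and 2922 CPM in BWF1 females, against 2391 to 2548 CPM in BWF1 males and 2472 to 2603 CPM in BALB/c females. The 11 SR genes summed to 781, 858 and 932 CPM in BWF1 females, against 671, 592 and 594 CPM in BWF1 males and 741, 744 and 714 CPM in BALB/c females. In these 4 groups the BWF1 female range did not meet the others. The 47 Rbm genes gave 1423 to 1642 CPM in BWF1 females, above the 1333 to 1400.4 CPM of BWF1 males but overlapping the 1449.7 to 1518 CPM of BALB/c females. The 11 U2 snRNP genes gave 745 to 832 CPM in BWF1 females, 729 to 847 CPM in BWF1 males and 743 to 814 CPM in BALB/c females, and their ranges overlap. The ranges also overlap for the 16 genes of the U5 and U4/U6 snRNPs and Prp proteins, at 949 to 1073 CPM in BWF1 females, 967 to 1072 CPM in BWF1 males and 972 to 1069 CPM in BALB/c females. The 8 Sm genes gave 175 to 221 CPM in BWF1 females and 179 to 212 CPM in BWF1 males, both above the 133 to 166 CPM of BALB/c females. The 3 U2AF genes gave 131 to 163 CPM in BWF1 females, 121 to 165 CPM in BWF1 males and 111 to 125 CPM in BALB/c females. The 3 minor spliceosome genes gave 29.0 to 57.3 CPM in BWF1 females, 26.2 to 47.1 CPM in BWF1 males and 28.7 to 37.4 CPM in BALB/c females, and all 3 groups overlap.

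The first comparison asked which members differ between BWF1 females and males. In edgeR, 11 of 109 tested members were higher in BWF1 females at an adjusted p under 0.05 and 0 were lower, where 0.959% of all 7719 tested genes were called higher and 1.23% lower (2.19% in either direction). At an unadjusted p under 0.05, 28 members were higher and 2 lower, where 7.92% and 8.49% of all genes were. DESeq2 called 11 higher and 0 lower, against 0.453% and 0.972% of all genes by that tool, and limma-voom 17 higher and 0 lower, against 1.9% and 1.28%. The median log2 fold change of the members was 0.18, with 75 above 0 and 34 below, against a median of 0.00064 over all tested genes. The groups did not overlap with BWF1 females higher for 31 members and lower for 3, where 9.04% and 9.68% of all genes did so. Leaving out BWF1 male 3, the deepest library, left 4 calls, and scaling by library size alone also left 4, with the median of all genes then shifted by 0.16 and that of the members at 0.36. Calls over all genes fell from 169 to 58 without BWF1 male 3 and to 59 by library size alone.

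**Figure D2:**
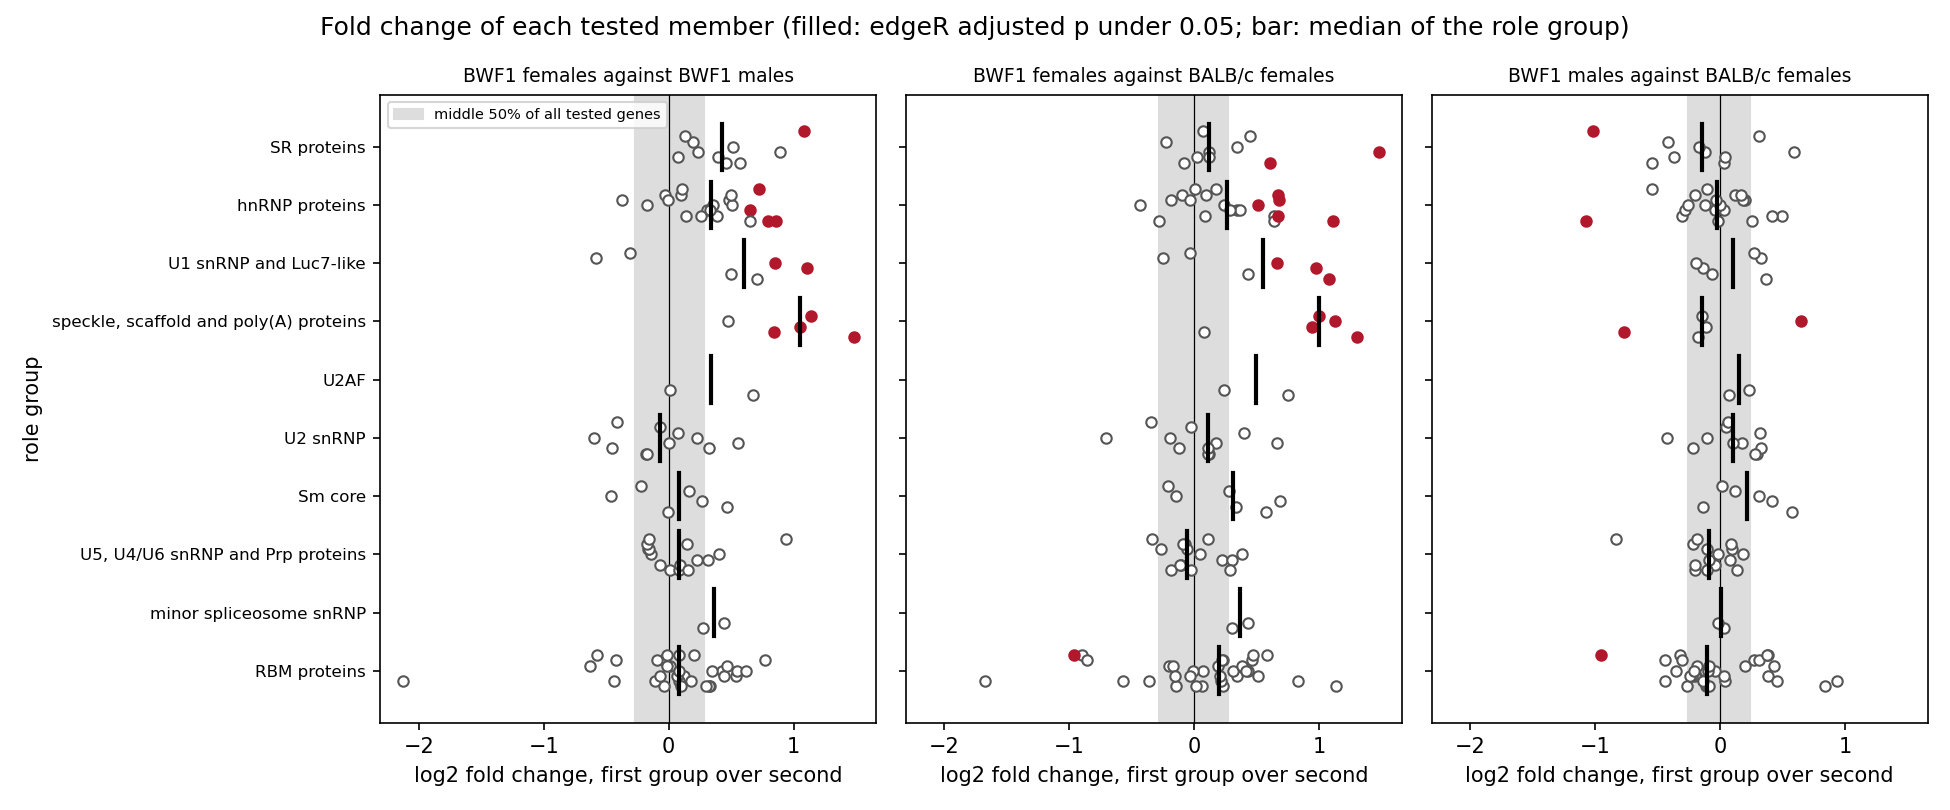
Log2 fold change of each tested member (points) by role group in the 3 comparisons, with filled points for an edgeR adjusted p under 0.05, black bars for the median of the role group and grey for the middle 50% of all 7719 tested genes. The filled points to the right of 0 lie in 4 role groups (SR, hnRNP, U1 snRNP and Luc7-like, speckle and scaffold), with 11 in the first panel, 14 in the second and 1 in the third.

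Of the 5 genes of nuclear speckles, the nuclear scaffold and the poly(A) tail, 4 were called higher in BWF1 females than in males and 4 than in BALB/c females. The shares over all tested genes were 0.959% and 1.79%. These 5 genes were added to the rule one by one, with earlier results of these data known. Their share of calls is therefore a description and no independent support. Safb2, a scaffold attachment factor that binds RNA and chromatin (ENSMUSG00000042625, chr17:56560965-56584585 on mm10), stood at 128, 163 and 181 CPM in BWF1 females, 78.5, 56.4 and 79.1 CPM in BWF1 males and 66.1, 84.8 and 85.2 CPM in BALB/c females. Every BWF1 female was above the other 6 libraries, with a log2 fold change of 1.14 ± 0.19 (SE) over BWF1 males (edgeR adjusted p = 0.00111) and 1.00 ± 0.19 over BALB/c females (edgeR adjusted p = 0.00145). Its neighbour Safb (ENSMUSG00000071054, chr17:56584825-56606294), which encodes a close relative, stood at 90.4, 134 and 138 CPM in BWF1 females, 98.1, 76.9 and 86.6 CPM in BWF1 males and 53.9, 61.1 and 50.6 CPM in BALB/c females. The Safb levels of BWF1 females and males overlap, and their difference of 0.48 ± 0.19 missed the threshold (edgeR adjusted p = 0.184). Both BWF1 groups lay above BALB/c females, by 1.13 ± 0.19 in BWF1 females (edgeR adjusted p = 0.000557) and 0.65 ± 0.19 in BWF1 males (edgeR adjusted p = 0.0486). Of the 50-base windows in their transcripts, 7.41% of Safb and 6.73% of Safb2 also occur in another gene.

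Pnn encodes pinin, a speckle protein that joins splicing complexes and the exon junction complex (chr12:59066884-59073998). It stood at 97.0, 88.7 and 96.5 CPM in BWF1 females, 58.8, 45.1 and 35.4 CPM in BWF1 males and 53.2, 47.97 and 45.6 CPM in BALB/c females. Both other groups lay below every BWF1 female, with log2 fold changes of 1.05 ± 0.20 over BWF1 males (edgeR adjusted p = 0.00532) and 0.94 ± 0.20 over BALB/c females (edgeR adjusted p = 0.00548). Pabpn1, the nuclear poly(A)-binding protein that sets tail length, stood at 46.3, 32.3 and 34.9 CPM in BWF1 females, 11.8, 15.4 and 12.9 CPM in BWF1 males and 15.1, 13.8 and 16.9 CPM in BALB/c females. These were changes of 1.48 ± 0.29 over BWF1 males (edgeR adjusted p = 0.00537) and 1.30 ± 0.28 over BALB/c females (edgeR adjusted p = 0.00634). Pabpn1 shares exonic bases on the same strand with another counted gene, and 18.8% of its 50-base windows occur elsewhere, so its counts are uncertain. Pnisr, a speckle protein that binds pinin, stood at 64.0, 105 and 80.1 CPM in BWF1 females, 53.0, 49.2 and 39.1 CPM in BWF1 males and 97.0, 66.4 and 73.4 CPM in BALB/c females. Here the males stood apart, below BWF1 females (0.84 ± 0.21, edgeR adjusted p = 0.0352) and below BALB/c females (-0.76 ± 0.21, edgeR adjusted p = 0.0370).

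**Figure D3:**
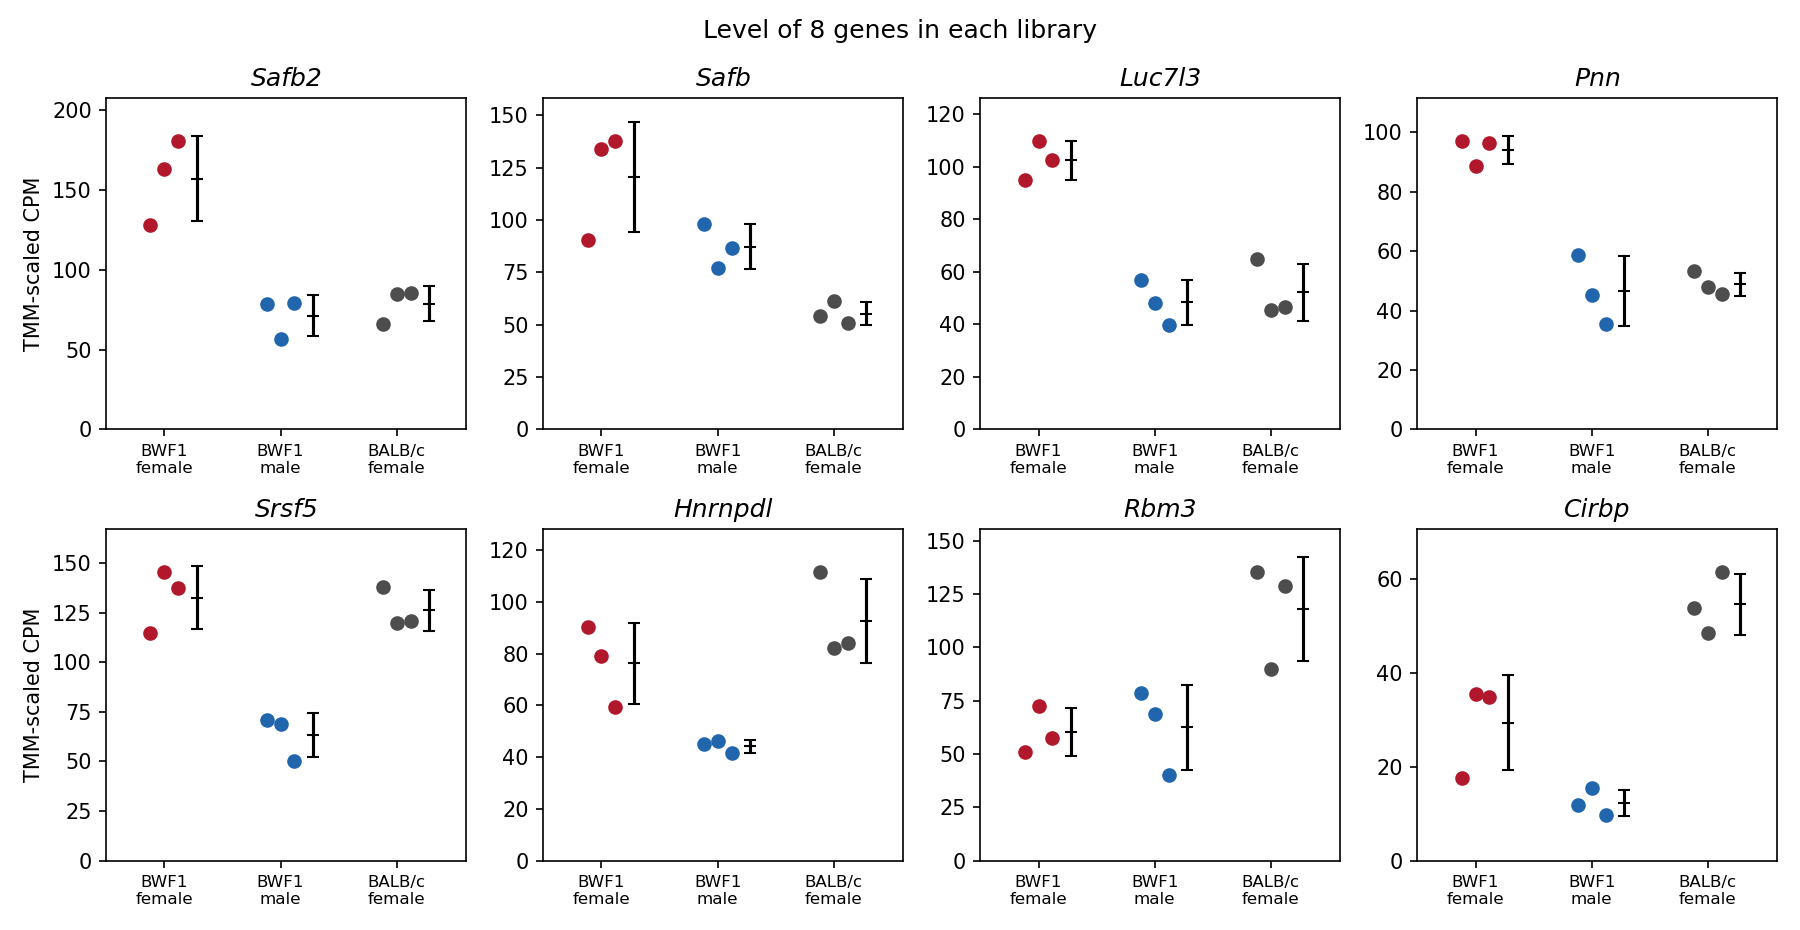
TMM-scaled CPM of 8 genes in each library (points), with the mean and SD of 3 libraries (bars), for BWF1 females, males of the same cross and BALB/c females. Safb2, Luc7l3 and Pnn are highest in the 3 BWF1 females, Srsf5 and Hnrnpdl are lowest in the 3 BWF1 males, and Rbm3 and Cirbp are highest in the 3 BALB/c females.

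Around the 5′ splice site, Luc7l3, a Luc7-like protein that associates with the U1 snRNP (ENSMUSG00000020863, chr11:94287890-94321988), stood at 94.8, 110 and 103 CPM in BWF1 females, 56.9, 48.2 and 39.8 CPM in BWF1 males and 64.7, 45.3 and 46.6 CPM in BALB/c females. The 3 BWF1 females lay above all others, by 1.11 ± 0.20 over BWF1 males (edgeR adjusted p = 0.00249) and 0.97 ± 0.20 over BALB/c females (edgeR adjusted p = 0.00379). Snrnp70, the U1-70K subunit and a known autoantigen in connective tissue disease, stood at 190, 152 and 195 CPM in BWF1 females, 118, 92.3 and 89.1 CPM in BWF1 males and 103, 117 and 118 CPM in BALB/c females. Its changes were 0.85 ± 0.17 over BWF1 males (edgeR adjusted p = 0.0055) and 0.66 ± 0.17 over BALB/c females (edgeR adjusted p = 0.0202). Luc7l stood at 52.9, 40.3 and 71.9 CPM in BWF1 females, 33.3, 39.0 and 29.4 CPM in BWF1 males and 23.0, 26.3 and 28.7 CPM in BALB/c females, and only the change over BALB/c females passed (1.08 ± 0.24, edgeR adjusted p = 0.00895, against 0.70 ± 0.24 and 0.128 over males). Snrpc, the U1-C subunit and the lowest of the 6 genes per kilobase, ranged from 8.21 to 11.3 CPM in BWF1 females, 8.75 to 16.4 CPM in BWF1 males and 8.62 to 11.8 CPM in BALB/c females, and was called in none of the 3 comparisons.

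Among the SR genes, Srsf5, a splicing activator (ENSMUSG00000021134, chr12:80945504-80950507), stood at 115, 145 and 138 CPM in BWF1 females, 70.6, 68.7 and 50.4 CPM in BWF1 males and 138, 120 and 121 CPM in BALB/c females. The 3 males were below the 6 females of both strains, with log2 fold changes of 1.09 ± 0.18 for BWF1 females over males (edgeR adjusted p = 0.00111) and -1.01 ± 0.18 for males over BALB/c females (edgeR adjusted p = 0.000616). The difference between BWF1 and BALB/c females was 0.07 ± 0.17. Srsf9, which acts on splice site choice, stood at 41.9, 46.8 and 37.0 CPM in BWF1 females, 21.6, 22.6 and 23.3 CPM in BWF1 males and 15.8, 17.7 and 10.9 CPM in BALB/c females. The groups did not overlap in any pair, and the change over BALB/c females passed (1.48 ± 0.27, edgeR adjusted p = 0.00111), whereas that over males did not (0.89 ± 0.26, edgeR adjusted p = 0.0756). Srsf1, the founding SR protein, stood at 146, 147 and 170.4 CPM in BWF1 females, 114, 92.3 and 106 CPM in BWF1 males and 103, 110 and 90.2 CPM in BALB/c females, with 0.61 ± 0.16 over BALB/c females (edgeR adjusted p = 0.0315) and 0.57 ± 0.16 over males (edgeR adjusted p = 0.0660). Srsf2, the highest SR gene per kilobase, ranged from 112 to 144 CPM in BWF1 females, 78.9 to 98.1 CPM in BWF1 males and 78.3 to 121 CPM in BALB/c females, and was not called. All 10 tested SR genes had log2 fold changes above 0 in BWF1 females over males (median 0.42), against 8 of 10 over BALB/c females (median 0.11).

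Of 20 tested hnRNP genes, 4 were called higher in BWF1 females than in males and 5 than in BALB/c females. The shares over all tested genes were 0.959% and 1.79%. Hnrnpa0, which binds AU-rich elements, stood at 176, 237 and 250.5 CPM in BWF1 females, 131, 77.9 and 156 CPM in BWF1 males and 74.0, 111 and 123 CPM in BALB/c females. It was higher in BWF1 females by 0.86 ± 0.22 over males (edgeR adjusted p = 0.0338) and 1.11 ± 0.22 over BALB/c females (edgeR adjusted p = 0.00237). Hnrnpd (AUF1) and its paralog Hnrnpdl, both binders of AU-rich elements, lie near each other on chromosome 5 (chr5:99955935-99978938 and chr5:100033577-100039664). Hnrnpd stood at 92.6, 110 and 94.4 CPM in BWF1 females, 62.8, 60.5 and 57.7 CPM in BWF1 males and 93.4, 89.4 and 80.3 CPM in BALB/c females. Hnrnpdl stood at 90.4, 79.1 and 59.5 CPM in BWF1 females, 45.1, 46.1 and 41.4 CPM in BWF1 males and 111, 82.1 and 84.3 CPM in BALB/c females. For both genes the males were below all 6 females, by 0.72 ± 0.17 for Hnrnpd in BWF1 females over males (edgeR adjusted p = 0.0263) and 0.79 ± 0.20 for Hnrnpdl (edgeR adjusted p = 0.0346). In males over BALB/c females, Hnrnpdl was lower at -1.07 ± 0.19 (edgeR adjusted p = 0.00102), while Hnrnpd at -0.55 ± 0.17 missed the threshold (edgeR adjusted p = 0.0739).

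Other hnRNP genes stood above BALB/c females. Hnrnpul2, a relative of the scaffold protein hnRNP U, stood at 216, 226 and 224 CPM in BWF1 females, 147, 163 and 159 CPM in BWF1 males and 131, 138 and 151 CPM in BALB/c females (0.67 ± 0.15 over BALB/c females, edgeR adjusted p = 0.00738). Hnrnpm, a regulator of alternative exons, stood at 169.8, 181 and 179 CPM in BWF1 females, 163, 132 and 148 CPM in BWF1 males and 115, 105 and 112 CPM in BALB/c females (0.67 ± 0.15, edgeR adjusted p = 0.00971). Hnrnpab, which binds RNA and single-stranded DNA, stood at 157, 203 and 160.2 CPM in BWF1 females, 131, 113 and 129 CPM in BWF1 males and 99.9, 104 and 122 CPM in BALB/c females (0.68 ± 0.16, edgeR adjusted p = 0.0154). For these 3 genes every BWF1 female lay above every BALB/c female. Hnrnpu, a scaffold protein of the nuclear matrix, stood at 441, 511 and 458 CPM in BWF1 females, 335, 300 and 356 CPM in BWF1 males and 334, 319 and 338 CPM in BALB/c females (0.51 ± 0.14, edgeR adjusted p = 0.0347), with the same size of change over males just missing the threshold (0.51 ± 0.14, edgeR adjusted p = 0.0511). Hnrnph1, which binds G-rich runs, was higher in BWF1 females than in males, at 143, 168 and 131 CPM against 102, 102 and 80.6 CPM (0.65 ± 0.17, edgeR adjusted p = 0.0442), with 129, 99.9 and 114 CPM in BALB/c females. Hnrnpab and Hnrnpu share exonic bases with another counted gene on the opposite strand, and whether the counting used strand is not given. Hnrnpm shares exonic bases with another counted gene on the same strand. The counts of Hnrnpab, Hnrnpu and Hnrnpm are therefore uncertain.

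The comparison of BWF1 with BALB/c females asked which members differ between the strains. In edgeR, 14 of 109 members were higher and 1 lower in BWF1 females, where 1.79% and 2.03% of all tested genes were (3.82% in either direction). At an unadjusted p under 0.05, 23 members were higher and 4 lower, where 8.43% and 8.51% of all genes were. DESeq2 called 13 higher and 1 lower, against 0.894% and 1.05% of all genes by that tool, and limma-voom 14 higher and 1 lower, against 1.84% and 1.36%. The members' median log2 fold change was 0.18, with 72 above 0, and the groups did not overlap for 25 higher and 4 lower members, against 10.3% and 10.9% of all genes. Of the 19 members called higher in BWF1 females in either comparison, 6 (Safb2, Luc7l3, Pnn, Pabpn1, Snrnp70 and Hnrnpa0) were called in both, which share the BWF1 female libraries. Scaling by library size alone ended all 15 calls, moving the median of all genes by -0.29 and that of the members to -0.11, still above the median of all genes. Leaving out BALB/c female 1 left 9 calls. Calls over all genes fell from 295 to 130 by library size alone and to 184 without BALB/c female 1.

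**Figure D4:**
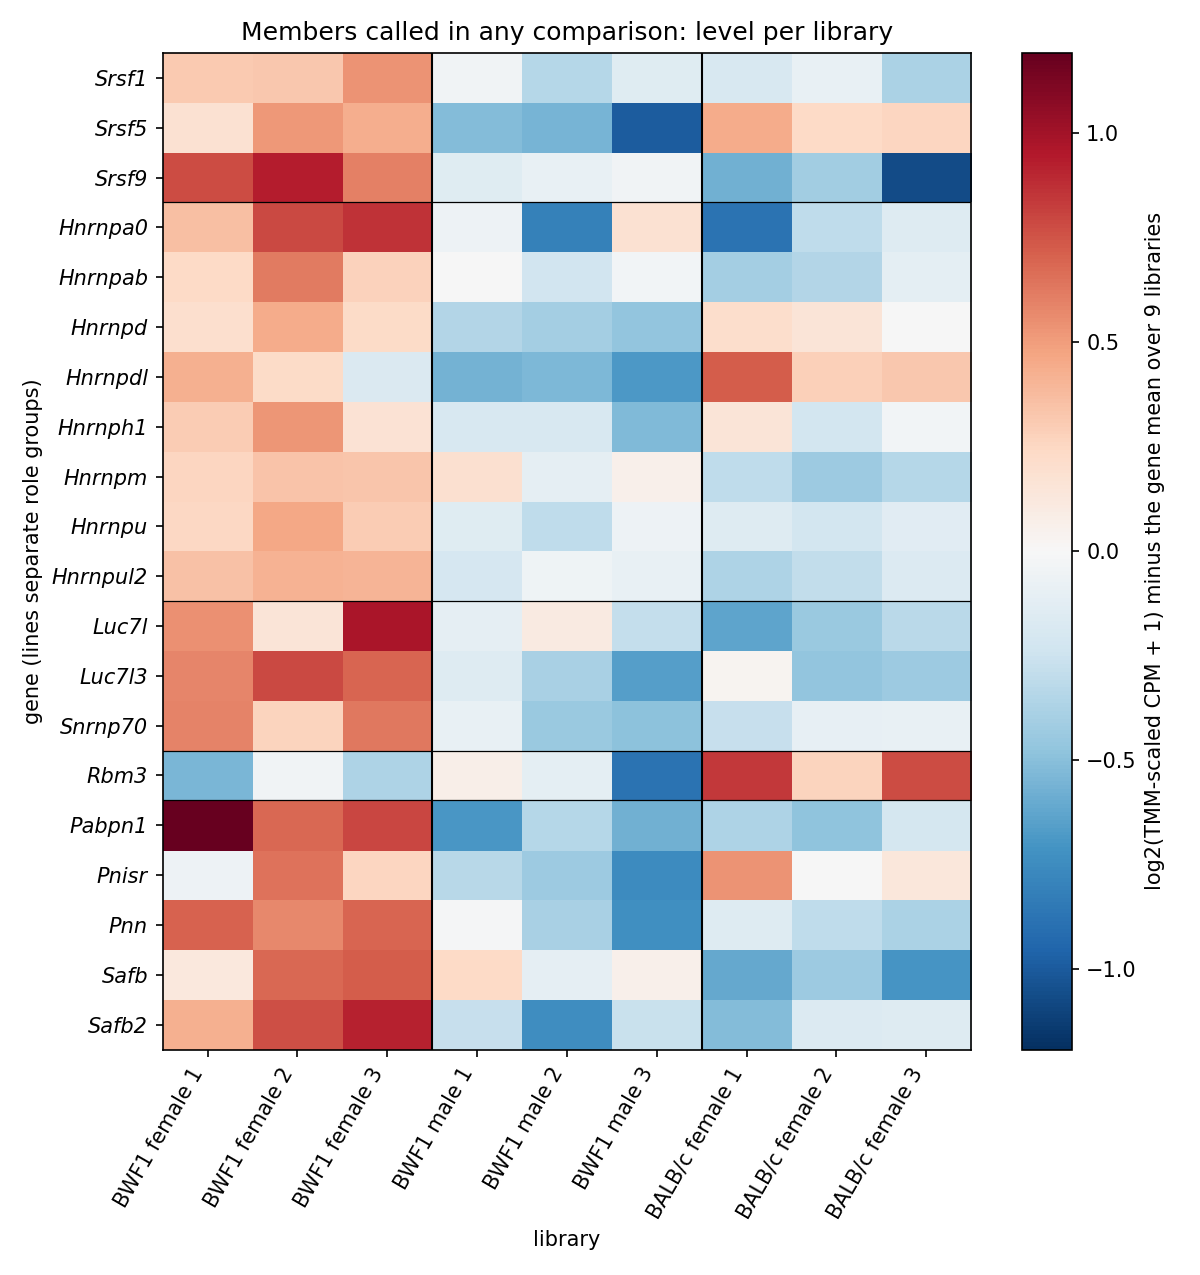
Level of the 20 members called in any comparison, as log2(TMM-scaled CPM + 1) minus the mean of the gene over 9 libraries, with libraries in columns and role groups separated by lines. Rows such as Safb2, Luc7l3 and Pabpn1 are red in the 3 BWF1 females, rows such as Srsf5 and Hnrnpdl are blue in the 3 BWF1 males, and Rbm3 is red in the 3 BALB/c females.

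Rbm3 ran the other way. It encodes a cold-inducible RNA-binding protein on the X chromosome (ENSMUSG00000031167, chrX:8138975-8145880) and stood at 50.7, 72.6 and 57.5 CPM in BWF1 females, 78.5, 68.7 and 40.2 CPM in BWF1 males and 135, 90.0 and 129 CPM in BALB/c females. Both BWF1 groups lay below every BALB/c female, with log2 fold changes of -0.96 ± 0.23 in BWF1 females (edgeR adjusted p = 0.0131) and -0.95 ± 0.22 in BWF1 males (edgeR adjusted p = 0.0123). The difference between BWF1 females and males was -0.01 ± 0.23. Cirbp, the other cold-inducible RNA-binding protein and no member, stood at 17.6, 35.5 and 34.9 CPM in BWF1 females, 11.8, 15.4 and 9.79 CPM in BWF1 males and 53.9, 48.6 and 61.5 CPM in BALB/c females. It was lower in BWF1 males than in BALB/c females by a log2 fold change of -2.18 ± 0.27 (edgeR adjusted p = 7.57e-06) and higher in BWF1 females than in males by 1.30 ± 0.29 (edgeR adjusted p = 0.0141), a call lost without BWF1 female 2 or 3 or BWF1 male 3. The latter call was also lost in DESeq2, under library size scaling and with only the 2 groups fitted. Beside these, the 16 stress and immediate early genes, all counted and tested, summed to 1125 to 1367 CPM in BWF1 females, 1380 to 2156 CPM in BWF1 males and 2452 to 3898 CPM in BALB/c females, and their part in these results was not tested.

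The other 3 X-linked members tested were called in none of the comparisons. Rbm10, a splicing regulator, ranged from 35.3 to 40.3 CPM in BWF1 females, 27.7 to 49.0 CPM in BWF1 males and 38.8 to 45.6 CPM in BALB/c females. Rbmx, also known as hnRNP G, was at 16.1 to 34.9 CPM in BWF1 females, 18.3 to 33.3 CPM in BWF1 males and 19.4 to 27.6 CPM in BALB/c females. Hnrnph2, a paralog of Hnrnph1, was at 10.3 to 25.8 CPM in BWF1 females, 17.4 to 23.5 CPM in BWF1 males and 19.8 to 29.5 CPM in BALB/c females. For all 3 genes the groups overlap. Among the other Rbm genes, Rbm38, a target of p53 and the highest Rbm gene per kilobase, ranged from 72.6 to 94.4 CPM in BWF1 females, 65.6 to 92.2 CPM in BWF1 males and 62.5 to 118 CPM in BALB/c females. The fitted change furthest below 0 was that of Rbm48 in BWF1 females over males (-2.13 ± 0.64, edgeR adjusted p = 0.0802), which rested on 1, 1 and 2 counts in BWF1 females and 7, 15 and 39 counts in BWF1 males and was not called.

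BWF1 males and BALB/c females differ in both sex and strain. In edgeR, 1 of 109 members was higher and 4 were lower in BWF1 males, where 1.67% and 1.85% of all tested genes were (3.52% in either direction), so the count is near the background. At an unadjusted p under 0.05, 8 members were higher and 8 lower, against 7.93% and 8.39% of all genes. The members' median was -0.04, with 50 above 0 and 59 below, and the groups did not overlap for 7 higher and 12 lower members, against 11.6% and 11.9% of all genes. The 4 lower members were Srsf5, Hnrnpdl, Rbm3 and Pnisr, and the higher one was Safb. DESeq2 called 0 higher and 3 lower, against 1.17% and 0.972% of all genes by that tool, and limma-voom 3 higher and 9 lower, against 3.72% and 4.7%. Leaving out BWF1 male 3, BALB/c female 1 or BALB/c female 3 left 2 calls. Calls over all genes then fell from 272 to 150, 199 and 222.

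The U2, U5 and U4/U6 snRNP, Prp and Sm genes held no edgeR call in any comparison. Over all tested genes the share called was 2.19% in BWF1 females over males, 3.82% in BWF1 over BALB/c females and 3.52% in BWF1 males over BALB/c females, and 16.4%, 16.9% and 16.3% at an unadjusted p under 0.05. With groups of 6 to 15 genes, 0 calls is near that background and is not a result about these genes. In edgeR, 0 of 11 U2 snRNP genes were called, with 0, 1 and 2 at an unadjusted p under 0.05 in BWF1 females over males, BWF1 over BALB/c females, and BWF1 males over BALB/c females. DESeq2 also called 0, and limma-voom called 1 lower in BWF1 males than in BALB/c females. Of 15 tested genes of the U5 and U4/U6 snRNPs and Prp proteins, edgeR and DESeq2 called 0 (1, 0 and 1 unadjusted in edgeR), and limma-voom called 1 higher in BWF1 females than in males and 1 lower in males than in BALB/c females. Of 6 tested Sm genes, edgeR and DESeq2 called 0 (0, 2 and 1 unadjusted in edgeR), and limma-voom called 1 higher in BWF1 males than in BALB/c females. Of all genes, limma-voom called 1.9% higher in BWF1 females over males, and 3.72% higher and 4.7% lower in males over BALB/c females. Whether these role groups differ from the SR and hnRNP genes was not tested.

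Single genes of these groups varied in their order. Prpf8, the U5 protein at the catalytic centre and the highest of its role group per kilobase, stood at 337, 324 and 244 CPM in BWF1 females, 328, 319.9 and 364 CPM in BWF1 males and 295, 352 and 297 CPM in BALB/c females, and all 3 groups overlap. Sf3b1, the U2 subunit that holds the branch site, stood at 256, 273 and 253 CPM in BWF1 females, 253, 219 and 197 CPM in BWF1 males and 339, 290.5 and 265 CPM in BALB/c females, with -0.42 ± 0.15 in males over BALB/c females (edgeR adjusted p = 0.126). Sf3b2 stood at 189.7, 207 and 199 CPM in BWF1 females, 196, 186 and 184 CPM in BWF1 males and 152, 156 and 144 CPM in BALB/c females, so BALB/c females were lowest without a call (0.40 ± 0.14 for BWF1 females, edgeR adjusted p = 0.140). Snrpb, which encodes SmB and is the highest Sm gene per kilobase, stood at 81.6, 90.3 and 69.8 CPM in BWF1 females, 90.2, 81.0 and 73.1 CPM in BWF1 males and 35.2, 60.5 and 67.4 CPM in BALB/c females (0.58 ± 0.21 for males over BALB/c females, edgeR adjusted p = 0.138). Sm proteins are classical autoantigens of lupus.

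Prpf39, a U1-associated factor grouped here by its name, came nearest to a call, at 30.9, 43.6 and 37.0 CPM in BWF1 females, 13.7, 20.5 and 21.9 CPM in BWF1 males and 35.2, 38.8 and 29.7 CPM in BALB/c females. The males were below all females, by 0.94 ± 0.26 for BWF1 females over males (edgeR adjusted p = 0.0511) and -0.83 ± 0.24 for males over BALB/c females (edgeR adjusted p = 0.0560). U2af1, which reads the AG at the 3′ splice site, ranged from 27.4 to 33.1 CPM in BWF1 females, 15.8 to 23.5 CPM in BWF1 males and 12.5 to 24.4 CPM in BALB/c females, and was not called. Its large partner U2af2, which binds the polypyrimidine tract, was at 98.6 to 128 CPM in BWF1 females, 102 to 137 CPM in BWF1 males and 84.8 to 108 CPM in BALB/c females, also without a call. Among the minor spliceosome genes, Snrnp48 was at 16.1 to 37.5 CPM in BWF1 females, 13.7 to 29.4 CPM in BWF1 males and 14.9 to 25.2 CPM in BALB/c females. Snrnp25 was at 8.21 to 13.2 CPM in BWF1 females, 6.15 to 13.7 CPM in BWF1 males and 7.23 to 10.9 CPM in BALB/c females. The groups overlap for both genes, and neither was called.

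A list of 141 other splicing genes, which the name rule leaves out, was described in the same way. Of 132 tested, edgeR called 4 higher and 0 lower in BWF1 females than in males (21 higher and 4 lower unadjusted), 2 higher and 1 lower in BWF1 than in BALB/c females, and 0 higher and 3 lower in BWF1 males than in BALB/c females (2 higher and 12 lower unadjusted). Of all tested genes, 0.959% and 1.23% were called higher and lower in BWF1 females over males, 1.79% and 2.03% in BWF1 over BALB/c females and 1.67% and 1.85% in BWF1 males over BALB/c females. Against BALB/c females the edgeR calls of the list are near or below that background. At an unadjusted p under 0.05, 7.92% and 8.49% of all genes were higher and lower in BWF1 females over males. In BWF1 males over BALB/c females 7.93% and 8.39% were. In BWF1 females over males, DESeq2 called 2 higher and 0 lower, against 0.453% and 0.972% of all genes by that tool. There limma-voom called 6 higher and 0 lower, against 1.9% and 1.28%. In BWF1 over BALB/c females both called 2 higher and 0 lower. Of all genes, DESeq2 called 0.894% and 1.05% there, and limma-voom 1.84% and 1.36%. In BWF1 males over BALB/c females DESeq2 called 4 lower and limma-voom 6 lower, against 0.972% and 4.7% of all genes. Both called 0 higher there, against 1.17% and 3.72% of all genes. Their median log2 fold change was 0.14 in BWF1 females over males, 0.07 in BWF1 over BALB/c females and -0.05 in BWF1 males over BALB/c females. Sart1, which recruits the tri-snRNP, stood at 112, 77.4 and 117 CPM in BWF1 females, 64.7, 44.1 and 59.1 CPM in BWF1 males and 38.8, 50.6 and 52.5 CPM in BALB/c females, and was higher in BWF1 females than in males (0.87 ± 0.21, edgeR adjusted p = 0.0255) and BALB/c females (1.11 ± 0.21, edgeR adjusted p = 0.00163). Sfpq, a paraspeckle protein, stood at 307, 266 and 257 CPM in BWF1 females, 257, 143 and 210 CPM in BWF1 males and 166, 140 and 155 CPM in BALB/c females (0.85 ± 0.18 over BALB/c females, edgeR adjusted p = 0.00433).

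The other called genes of this list include kinases of SR proteins (Clk1 and Clk3) and the export helicase Ddx39b. Clk3 stood at 46.3, 35.5 and 67.8 CPM in BWF1 females, against 17.7, 30.8 and 22.5 CPM in BWF1 males (1.05 ± 0.27, edgeR adjusted p = 0.0360). Clk1 stood at 84.3, 70.7 and 61.0 CPM in BWF1 males, against 134, 113 and 122 CPM in BALB/c females (-0.79 ± 0.17, edgeR adjusted p = 0.00659), with 94.8, 87.1 and 88.3 CPM in BWF1 females. Ddx39b stood at 154, 148 and 195 CPM in BWF1 females, against 108, 104 and 109 CPM in BWF1 males (0.63 ± 0.17, edgeR adjusted p = 0.0438). Zmat2, a tri-snRNP protein, was lower in BWF1 females at 19.8, 33.9 and 26.7 CPM, against 48.2, 44.0 and 56.5 CPM in BALB/c females (-0.87 ± 0.24, edgeR adjusted p = 0.0399). The calls of Clk3, Ddx39b and Zmat2 were lost when single libraries were left out (BWF1 female 3 or BWF1 male 3, among others, for each), as was that of Sart1 over males, while that of Clk1 was lost without BWF1 male 3. Under library size scaling the calls of Clk3, Ddx39b, Zmat2 and Sart1 were lost as well. With only the 2 groups fitted, those of Clk3, Ddx39b and Zmat2 were lost. Clk3 and Zmat2 were also lost in DESeq2, and Zmat2 in limma-voom.

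Safb2, Luc7l3 and Srsf5 in BWF1 females over males, and Srsf5 and Hnrnpdl in males over BALB/c females, passed in all 12 alternative settings and after leaving out each of the 9 libraries. Safb, Safb2, Luc7l3, Hnrnpa0, Srsf9 and Hnrnpul2 in BWF1 over BALB/c females were lost under library size scaling and in no other setting. Over males, Pnn, Snrnp70 and Pabpn1 were lost without BWF1 male 3 (Pabpn1 also in DESeq2), Hnrnpa0 without BWF1 female 2 or 3 or BWF1 male 2, and Hnrnpd without BWF1 female 2 or BWF1 male 2 or 3. Hnrnpdl over males was lost without BWF1 female 1 or 2 or male 2 or 3, Pnisr without BWF1 female 2 or 3, male 2 or 3 or BALB/c female 3, and Hnrnph1 without any library but BWF1 female 3, male 1 or BALB/c female 1. Of these calls over males, all but that of Pabpn1 were also lost under library size scaling. Those of Hnrnpd, Hnrnpdl, Pnisr and Hnrnph1 were lost with only the 2 groups fitted, and that of Hnrnpa0 with robust dispersion. Pnisr and Hnrnph1 were also lost with the replicate block, and Hnrnph1 without a filter.

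Over BALB/c females, Hnrnpm was lost without BALB/c female 2, Luc7l without BWF1 female 3 or BALB/c female 1, and Hnrnpab without BWF1 female 2 or BALB/c female 1 or 2. Rbm3 was lost in BWF1 females without BWF1 female 1 or BALB/c female 1 or 3, and in males without BWF1 male 3 or BALB/c female 1 or 3. Snrnp70, Hnrnpu and Srsf1 in BWF1 females, and Pnisr and Safb in males, were each lost without any of at least 5 libraries, every BALB/c female among them. Srsf1 and Hnrnpu were also lost without a filter and with the replicate block, and Srsf1 in DESeq2. In males, Pnisr and Safb were also lost in DESeq2 and with the replicate block. Safb in males was lost under library size scaling and with a minimum count of 20 as well. File names carry 2 tags of unknown meaning, and all BALB/c females carry the same one. With the tag as a term, 11 members were called in BWF1 females over males, 7 in BWF1 over BALB/c females and 2 in BWF1 males over BALB/c females, where 186, 160 and 153 of all genes were. The members lost with it were Pnn, Pabpn1, Snrnp70, Luc7l, Hnrnpm, Hnrnpu, Srsf1 and Rbm3 in BWF1 over BALB/c females, and Pnisr, Safb and Rbm3 in BWF1 males over BALB/c females.

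The make-up of the samples moved with the groups, and its part in these results was not tested. In bulk RNA, fewer cells of a type and less RNA per cell cannot be told apart. All 8 T cell markers were counted and summed to 310 to 448 CPM in BWF1 females, 569 to 669 CPM in BWF1 males and 405 to 576 CPM in BALB/c females. The 4 natural killer cell markers gave 46.8 to 53.4 CPM in BWF1 females, 192 to 199 CPM in BWF1 males and 69.0 to 106 CPM in BALB/c females. The 9 macrophage and gate markers, of which 7 were tested, gave 200.05 to 222 CPM in BWF1 females, 396 to 626 CPM in BWF1 males and 315 to 390 CPM in BALB/c females. In the last 2 lists the BWF1 females were the lowest group and the males the highest.

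The 8 B cell markers gave 2072 to 2334 CPM in BWF1 females, 2228 to 2792 CPM in BWF1 males and 2916 to 2932 CPM in BALB/c females, which were highest. The 5 plasma cell markers gave 489 to 706 CPM in BWF1 females, 1170 to 1975 CPM in BWF1 males and 547 to 719 CPM in BALB/c females, so the males were highest. The 6 neutrophil markers gave 145 to 269 CPM in BWF1 females, 214 to 467 CPM in BWF1 males and 224 to 321 CPM in BALB/c females, and these ranges overlap. The 9 erythroid genes gave 807 to 2228 CPM in BWF1 females, 150 to 1275 CPM in BWF1 males and 1350 to 4176 CPM in BALB/c females, with Hba-a2 at 0 in both BWF1 groups. The 7 proliferation genes gave 429 to 634 CPM in BWF1 females, 194 to 300.1 CPM in BWF1 males and 298 to 495 CPM in BALB/c females. Here BWF1 females stood above males, as in the summed splicing genes, but overlapped BALB/c females, unlike in those sums on the TMM scale. No other marker was at 0 throughout a group.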

How the data were processed

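The authors deposited raw counts of reads for each gene, as single files and a joint table. Per the submitters' processing notes, STAR 2.6, FastQC 0.10.1 and mm10 were named, without roles. The libraries were rRNA-depleted per the labels' protocols, and the strand setting, feature type and annotation of the counting are not given in the sources used here. Symbols, coordinates and exonic lengths came from GENCODE M21 (GRCm38/mm10), which matched 21939 of 21965 identifiers, and promoters from RefSeq GRCm38.p6.

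Genes were kept by filterByExpr (minimum count 10, 7719 kept), scaled with TMM and fitted over all 9 libraries in edgeR 4.0.16 (R 4.3.3) with its quasi-likelihood test. The adjustment over all 7719 genes was that of Benjamini and Hochberg, and a call is an adjusted p under 0.05. The standard error is the size of the log2 fold change over the square root of F. Alternatives were DESeq2 1.42.0, limma-voom (limma 3.58.1), other scalings and filters, robust dispersion, 2 groups only, a replicate block, the file name tag, Lars2 removed, a legacy edgeR fit (chosen after seeing the data) and each library left out. The model was run on counts simulated with its fitted dispersion and 200 genes changed per comparison. Such counts hold no other source of spread, so they cannot show the error rate in these data. Depth was 458608 to 4305003 counts per library with Lars2 and 188382 to 2050636 without it. Floors of 3 counts cover counting error only. Values in every library are given for called members, for the lowest p and highest level in each role, for Rbm3 and X-linked members, and for called genes of the other lists, except 1 that is not reported here. Rbm48, Rbm24, Rbm41 and Cd79a were named after their values were seen. Members, role groups and lists were chosen with earlier results of these data known, so nothing here is independent of them.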

Additional observations from a re-analysis of the deposited data

How the results depend on the processing

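The 11, 15 and 5 members called in BWF1 females over males, BWF1 over BALB/c females and BWF1 males over BALB/c females became 4, 0 and 5 when libraries were scaled by size alone, which moves the median of all genes by 0.16, -0.29 and -0.44. Calls over all genes then went from 169, 295 and 272 to 59, 130 and 274. The first count was 17 with limma-voom and 7 with only the 2 groups fitted, where 246 and 98 of all genes were called. The second was 7 with the file name tag as a term, where 160 of all genes were called. The third was 3 with DESeq2, 12 with limma-voom, 3 with the replicate block, 2 with the tag, 8 with Lars2 removed and 8 with the legacy edgeR fit. In the same order, 173 (over 15275 genes), 650, 240, 153, 433 and 484 of all genes were called. Leaving out 1 library gave 4 to 12, 9 to 15 and 2 to 6, where 58 to 198, 184 to 370 and 119 to 393 of all genes were called. The other splicing genes (4, 3 and 3 called) gave 0, 0 and 5 by library size, 2 with DESeq2 and 1 with only the 2 groups in the first comparison, 0 with the tag in the second, and in the third 5 without a filter, 6 with limma-voom, 5 with only the 2 groups, 5 with Lars2 removed and 5 with the legacy fit. Of all genes, 110 were called with DESeq2 in the first comparison. In the third, 510 were called without a filter and 345 with only the 2 groups. For the other splicing genes, leaving out 1 library gave 0 to 4, 2 to 5 and 1 to 5. The causes were not tested.

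Of the named genes, the direction turned for Rbm3 in BWF1 females over males, a value near 0 (-0.01): it was 0.25 by library size, 0.051 with DESeq2, 0.22 with limma-voom, 0.011 with the replicate block, 0.084 with Lars2 removed, 0.13 with the legacy fit, and -0.28 to 0.22 with 1 library left out.

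Replicate numbers are shared between groups, but same-numbered libraries did not deviate together (r from -0.0895 to 0.0576 over 9 pairs). The labels name no pairing. Same-numbered BWF1 females and males also carry the same file name tag, whose meaning is unknown. The block called 9, 13 and 3 members, where 118, 255 and 240 of all genes were called. Total gene counts are lowest in BWF1 females, where 3 counts stand at 4.84 to 6.62 CPM. In BWF1 male 1, where Lars2 took most counts, 3 counts stand at 5.88 CPM. Values near these levels in those libraries rest on few counts.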
